A study of Mus musculus with 25 samples.

Results

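The mitochondrial ribosomal protein genes are the protein-coding genes whose symbol starts with Mrpl or Mrps followed by a number. Mrpl is named for the large subunit and Mrps for the small one, but the symbol does not always give the subunit. The rule found 77 such genes, 48 Mrpl and 29 Mrps, among the 35561 genes of both deposited tables together. Of these members, 76 stood in the oocyte table and 77 in the embryo table, Mrps34 being the one listed for embryos alone. The RNA came through Smart-seq2, which copies and amplifies whole transcripts of few cells, in oocytes and in vitro fertilized embryos of C57BL/6 mice. MII oocytes, which had 16 h of maturation in vitro up to metaphase II, the stage that awaits the sperm, were kept with PBS (n = 4 libraries) or with a small molecule written as VCD (n = 5). Embryos at the 2-cell stage and at the morula stage, before the blastocyst cavity forms, came from a fertilization of 6 h and were cultured with PBS (n = 4 each) or VCD (n = 4 each). PBS, a buffered salt solution, was the control, and the sources used here give neither the full name nor the dose of VCD. They also leave out how many oocytes or embryos made a library and whether libraries came from separate animals or cultures, so a p-value reflects the spread among these libraries, which may be technical.

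Mitochondria carry ribosomes of their own, which translate the few mRNAs of the mitochondrial genome into subunits of the respiratory chain and the ATP synthase. The ribosomal RNAs of these particles are transcribed inside the organelle, whereas every protein of the particle is encoded in the nucleus, made in the cytosol and imported. Mouse oocytes are packed with mitochondria of simple structure, and the embryo begins to transcribe its own genome around the 2-cell stage while maternal RNA is broken down. Some proteins of the particle descend from bacterial ribosomal proteins, and others were added in the evolution of mitochondria.

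Promoter windows of RefSeq (GRCm38.p6), from 250 bases before to 50 after each gene's start, were found for 68 of the 77 members. They are shown because most members tested moved together between the 2-cell stage and the morula. Words of 3 factors known for nuclear genes of mitochondrial function were searched on both strands: GCGCANGC for NRF1, CCGGAAGT for the ETS family (which includes GABP) and ANATGGCG for YY1. The NRF1 word stood in 30.9% of the members' windows and in 13.4% of the 17491 windows of all protein-coding genes. For the ETS word these shares were 16.2% and 5.29%, and for the YY1 word 16.2% and 4.75%. At least 1 of the 3 words stood in 57.4% of members and 20.9% of all genes. A match describes the letters alone and says nothing of binding. The 120 bases before the start are printed 5′ to 3′ for 3 members that rose and 3 that fell between the stages, with word matches in capitals. Mrpl45 (chr11:97315596-97315715, plus strand), the subunit that anchors the ribosome to the inner membrane, holds the NRF1 word in duplicate, and Mrps22 (chr9:98601680-98601799, minus strand), a small subunit protein mutated in an inherited mitochondrial disease, holds the ETS word. Mrps12 (chr7:28741822-28741941, minus strand), a protein of the decoding centre, rose with none of these words in the stretch, and Mrps23 (chr11:88204268-88204387, plus strand), Mrpl48 (chr7:100608302-100608421, minus strand) and Mrps14 (chr1:160195095-160195214, plus strand), which fell, have none there either. The printed set does not stand for all: of the 6 members that fell, Mrpl3 has the ETS word in its window and Mrps14 the NRF1 word outside the printed stretch, so that 33.3% of those that fell and 64.8% of the 54 windows of members that rose held at least 1 word.
Mrpl45: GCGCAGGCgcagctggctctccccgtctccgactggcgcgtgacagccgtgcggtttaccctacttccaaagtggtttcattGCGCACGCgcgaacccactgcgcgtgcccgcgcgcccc
Mrps22: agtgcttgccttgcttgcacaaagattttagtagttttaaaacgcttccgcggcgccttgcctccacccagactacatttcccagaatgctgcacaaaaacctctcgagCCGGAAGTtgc
Mrps12: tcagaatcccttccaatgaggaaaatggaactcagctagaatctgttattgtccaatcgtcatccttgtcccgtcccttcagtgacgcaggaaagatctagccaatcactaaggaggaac
Mrps23: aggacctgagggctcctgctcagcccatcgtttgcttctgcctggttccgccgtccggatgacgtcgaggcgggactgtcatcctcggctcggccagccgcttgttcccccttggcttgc
Mrpl48: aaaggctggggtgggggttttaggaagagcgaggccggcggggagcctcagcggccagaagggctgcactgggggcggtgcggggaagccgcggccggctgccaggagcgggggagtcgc
Mrps14: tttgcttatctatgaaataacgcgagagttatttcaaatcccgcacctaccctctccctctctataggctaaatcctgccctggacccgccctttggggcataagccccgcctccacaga

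Values are FPKM, fragments scaled to exon length and to the depth of the library, whose steps correspond to a depth of 15075832 to 20998296 counted reads in each library. Oocyte markers such as Zp3 and Gdf9 summed to between 7735 and 10725 FPKM in MII libraries, and to between 28.7 and 60.2 in morulae. Early embryo markers of the 2-cell stage summed to between 1131 and 1607 FPKM in 2-cell libraries, and markers of the morula to between 231 and 393 in morulae, so each label had its defining transcripts. Markers of cumulus and granulosa cells, which surround the oocyte, had sums of 7.67 to 11.9 FPKM in MII oocytes. Their sums were 4.08 to 9.14 FPKM at the 2-cell stage and 0.191 to 0.590 FPKM at the morula stage. Of these 12 markers, 1 reached a mean of 1 FPKM in MII oocytes, 2 in 2-cell embryos and 0 in morulae, where 7 (PBS) and 8 (VCD) were at 0 in every library. Their part in the stage results below was not tested. Sperm markers summed to at most 2.15 FPKM in any library.

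The members' RNA made up a small share of the total in oocytes and a far larger one in morulae. Their summed share of all FPKM was 0.141% ± 0.00406 (SD, n = 4) in MII oocytes with PBS, 0.219% ± 0.0108 in 2-cell embryos with PBS and 0.687% ± 0.118 in morulae with PBS. With VCD the shares were 0.146% ± 0.0129 (n = 5), 0.216% ± 0.0314 (n = 4) and 0.640% ± 0.0801 (n = 4). Every morula library stood above every 2-cell library, and every 2-cell library above every MII library. The oocyte and embryo tables were deposited separately, so levels across them are set side by side without a test. A share is relative to all RNA of its library, so it does not give the amount of RNA per oocyte or embryo.

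**Figure D1:**
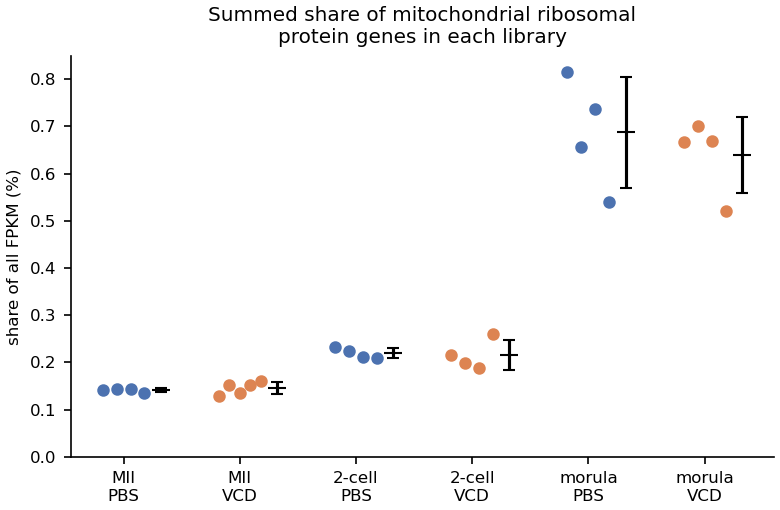
Share of all FPKM held by the mitochondrial ribosomal protein genes (vertical axis, %) in each of the 25 libraries (points, blue for PBS and orange for VCD), with the mean and SD of each group in black. The morula libraries lie between 0.522% and 0.815%, above all 2-cell libraries (0.187% to 0.259%) and all MII libraries (0.130% to 0.161%).

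Breadth of detection changed with the summed level. In MII oocytes with PBS between 44 and 46 of the 76 members reached 1 FPKM in a library, in 2-cell embryos with PBS between 57 and 59 of 77, and in morulae with PBS 72 or 73. With PBS the median member had a mean of 1.73 FPKM in MII oocytes, which was 3.88 at the 2-cell stage and 25.5 at the morula stage. The 3 most abundant members held 31.4%, 26.8% and 14.9% of the members' FPKM in these stages, so the particle's transcripts became more even in level. The order of the members was kept in part: across members, log levels correlated with Pearson's r = 0.742 between MII and 2-cell (76 members), 0.659 between 2-cell and morula (77 members) and 0.535 between MII and morula (76 members). These r describe genes that share libraries and exon lengths within a stage, and genes are not replicates.

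Mrpl10, a protein at the base of the stalk that recruits translation factors, was the most abundant member of oocytes and 2-cell embryos. It stood at 65.7, 66.2, 60.6 and 63.9 FPKM in the PBS MII libraries, 93.5, 121, 107 and 107 in the PBS 2-cell libraries and 144, 71.3, 108 and 93.4 in the PBS morulae. The 2-cell and morula values overlapped. In oocytes Mrpl18, whose bacterial counterpart binds 5S rRNA, was next with 35.1 ± 1.94 FPKM (SD, n = 4), followed by Mrpl44, an RNase III-like protein of the large subunit, with 33.9 ± 3.57, and these values overlapped. In 2-cell embryos the next were Mrpl40 with 63.5 ± 7.43 FPKM and Mrpl2 with 37.4 ± 3.97. In morulae Mrpl46, a mitochondria-specific large subunit protein, had the highest mean at 177 ± 12.3 FPKM, above Mrpl10 at 104 ± 30.7 and Mrpl27 at 95.6 ± 33.0, whose values overlapped.

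Low members need care, since an FPKM divides by the summed exon length of the gene. Mrpl13 (7936 bases of annotated exon), a conserved large subunit protein, was at 0.0137 ± 0.0130 FPKM in PBS oocytes and Mrpl58 (3332 bases), a release factor built into the large subunit, at 0.0163 ± 0.0131. Mrpl52, specific to mitochondria, was listed at 0 in all 4 PBS oocyte libraries. Mrps34, needed for the stability of the small subunit, was listed at 0 in all 8 2-cell libraries and held 18 reads over the 4 PBS morula libraries, but 71.8% of its 50-base words also occur in another gene (Mapk8ip3, on the opposite strand), and Smart-seq2 does not mark strand. Its value is therefore uncertain. In morulae with PBS the members with the lowest means beside it were Mrps36 (0.187, 0.137, 0.457 and 0.387 FPKM) and Mrpl33 (0.345, 0.269, 0.448 and 0.329 FPKM), a small conserved protein of the large subunit.

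Side by side with PBS, 37 of the 73 members tested in embryos were higher at each step, MII to 2-cell and 2-cell to morula, without overlap between the groups of libraries, as 20.8% of the 11903 genes so compared were. A second set of 10 was lower in 2-cell embryos than in oocytes and higher again in morulae, a pattern of 7.84% of all genes: Mrpl21, Mrpl32, Mrpl39, Mrpl44, Mrpl45, Mrpl47, Mrps5, Mrps9, Mrps28 and Mrps31. Another 5 were highest in 2-cell embryos, where 24.7% of all genes had that pattern: Mrpl3, Mrpl24, Mrpl48, Mrps14 and Mrps25. With VCD, 8 of 72 members were lower in 2-cell embryos than in both other stages (6.22% of all genes), among them Mrps28 and Mrps31 again. These counts were not split by the filter of the embryo test, described below. With PBS, Mrpl12, Mrpl30, Mrps10, Mrps18b, Mrps22, Mrps35, Mrpl39 and Mrps31 passed it through the morula libraries alone. That fixed their step from 2-cell embryo to morula, as it did for Mrps31 with VCD. Mrps25 passed through the PBS 2-cell libraries alone, which fixed its fall.

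**Figure D2:**
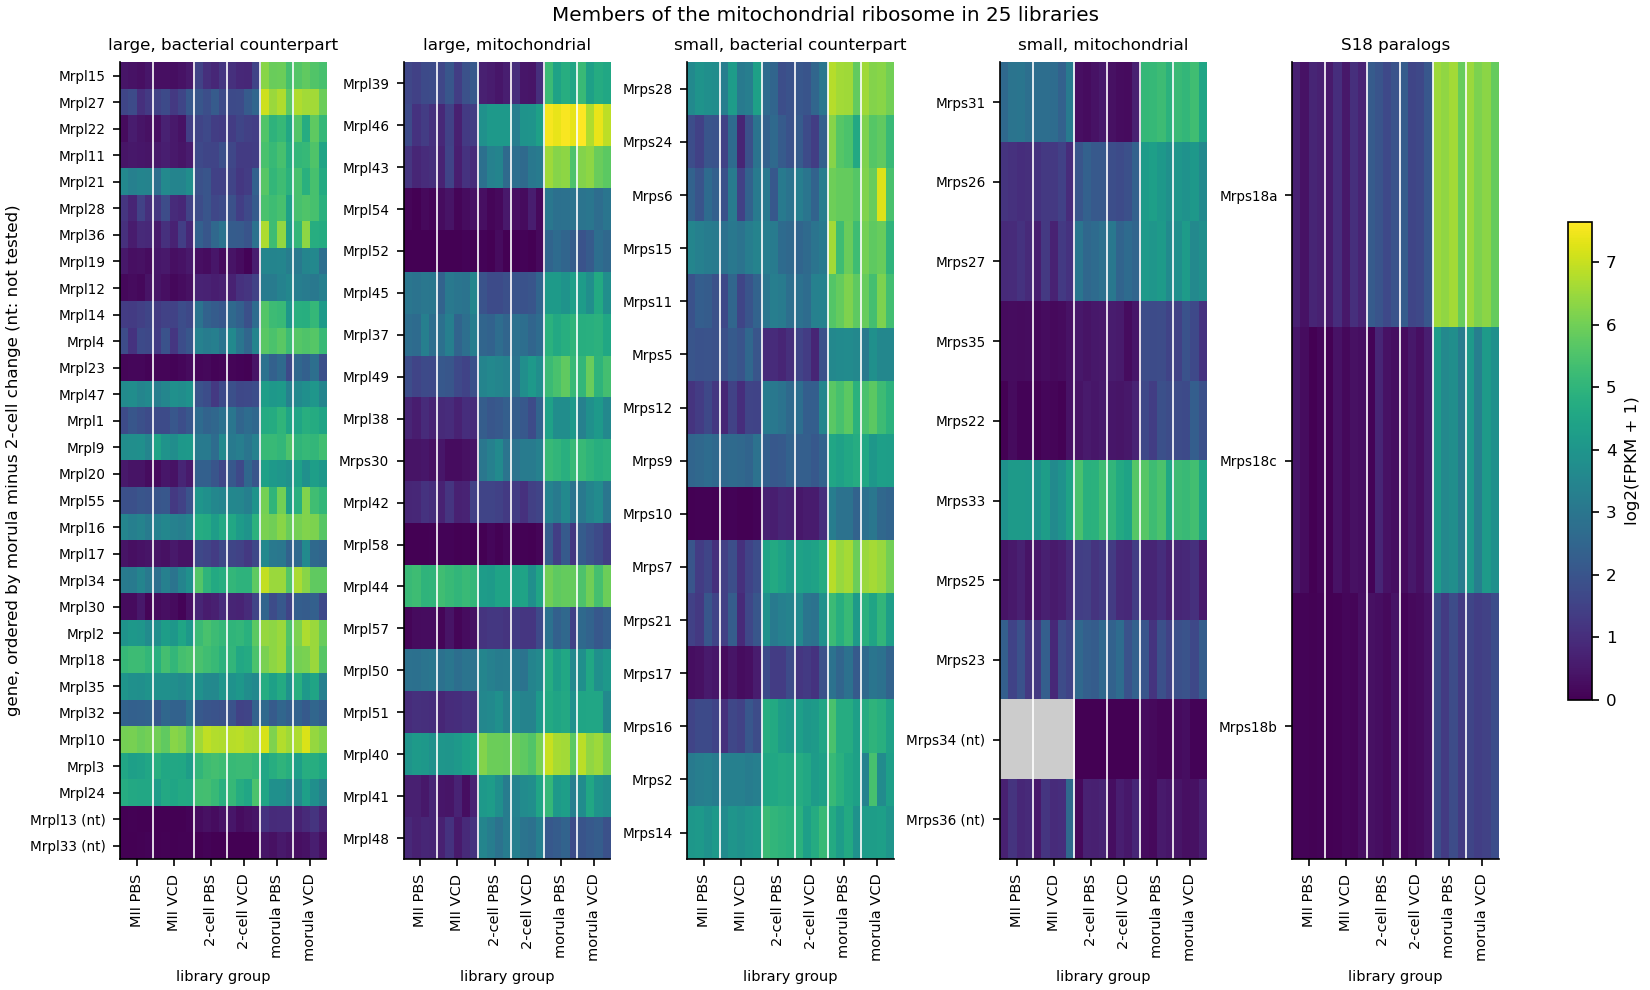
Level of each member, as log2(FPKM + 1) by colour, in each of the 25 libraries (columns, grouped by stage and agent), with members in rows by structural class and ordered by their change from 2-cell embryo to morula with PBS. Grey marks Mrps34, not in the oocyte table, and nt marks the 4 members not tested. Most rows are brightest in the morula columns, whereas Mrpl10 is bright throughout and Mrpl24, Mrpl48 and Mrps14 are brightest in 2-cell embryos.

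The first comparison asked how the members changed from the 2-cell embryo to the morula in control culture. Of 73 members tested, 61 (83.6%) were higher in morulae, where 42.7% of all 12517 genes tested were, and 6 (8.22%) were lower, where 45.0% of all genes were. Their median log2 change was 1.94, against -0.08 over all genes tested. In 66 members the 4 PBS morula libraries did not overlap the 4 PBS 2-cell libraries, which was common, at 83.4% of all genes tested. Tests were limma on log2(FPKM + 1), with Benjamini-Hochberg adjustment over all genes, for genes that reached 1 FPKM in 4 or more of the libraries compared. The 4 members below that filter were Mrpl13, Mrpl33, Mrps34 and Mrps36, the last of which is now known as a subunit of the 2-oxoglutarate dehydrogenase complex rather than of the ribosome.

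Of the 61, 16 reached 1 FPKM in all 4 morula libraries but not in all 4 2-cell libraries, so the filter favoured or fixed their rise. Mrpl12, Mrpl39, Mrpl58, Mrps18b, Mrps18c, Mrps22 and Mrps31, described below, were under 1 FPKM in every PBS 2-cell library. Mrpl15 and Mrps5 were under it in part of them. Lack of overlap and p-values of these members are no separate support. The same holds for the fall of Mrps25, which passed the filter through the PBS 2-cell libraries alone. The remaining count is over the 56 members at 1 FPKM or more in all libraries of both stages. Of these, 45 rose and 5 fell, with a median log2 change of 1.81. The same count over all 6058 genes so expressed gave 50.05% higher and 31.8% lower, with a median of 0.44.

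The large subunit proteins with a bacterial counterpart mostly rose. Of 28 tested, 25 rose and 2 fell, with a median log2 change of 2.08. Over all genes tested with PBS, 42.7% were higher and 45.0% lower, which also stands beside the PBS counts of the classes below. The class counts were not split by the filter, so they hold members whose rise it favoured or fixed. Mrpl15 (ENSMUSG00000033845, GRCm38 chr1:4773206-4785739, minus strand), a conserved core protein, stood at 1.84, 1.05, 0.799 and 1.33 FPKM in the PBS 2-cell libraries and at 77.2, 59.1, 59.99 and 40.9 in PBS morulae. The lowest morula library was many times above the highest 2-cell library, and the log2 change was 4.73 (SE 0.21, limma adjusted p = 4.55e-09). Mrpl27, a neighbour of the peptidyl transferase centre, went from 3.17, 2.61, 3.57 and 2.35 FPKM to 132, 90.4, 106 and 53.5. Its groups did not overlap either, and the log2 change was 4.56 (SE 0.25, limma adjusted p = 2.14e-08), but 26.9% of its 50-base words occur in other genes, chiefly the processed pseudogene Gm6304. Mrpl12, which binds the translation factors and has been described as a partner of the mitochondrial RNA polymerase, had 0.707, 0.665, 0.563 and 0.619 FPKM in 2-cell embryos and 8.02, 8.14, 9.44 and 10.6 in morulae. That was a log2 change of 2.61 (SE 0.13, limma adjusted p = 1.09e-08), with no overlap. Mrpl12 passed the filter through the morula libraries alone, which fixed its direction and the lack of overlap. Mrpl11, the partner of the stalk at the factor site, rose from 2.21 ± 0.324 to 36.6 ± 7.81 FPKM (SD, n = 4 each).

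Mrpl2, a core protein of the peptidyl transferase centre, went from 36.5, 42.6, 37.2 and 33.0 FPKM to 86.0, 80.4, 90.5 and 45.4, a log2 change of 0.95 (SE 0.21, limma adjusted p = 0.00133). Mrpl18 rose from 36.2 ± 5.73 to 70.6 ± 20.4 FPKM. Mrpl10 had a log2 change of -0.08 (95% interval -0.52 to 0.36, limma adjusted p = 0.708), which leaves out a change of 2-fold either way. With quantile normalization Mrpl10 was called lower (log2 change -0.45, limma adjusted p = 0.0375). In both Mrpl2 and Mrpl18 the lowest morula value came from the fourth PBS library, which was the lowest of its group for 55 of the 73 members with a group mean of 1 FPKM or more.

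Large subunit proteins added in mitochondria, a class that here includes Mrps30, gave 16 of 19 tested higher, 1 lower and a median log2 change of 1.81. Mrpl46 (ENSMUSG00000030612, GRCm38 chr7:78775236-78783531, minus strand) stood at 13.6, 16.2, 16.4 and 16.5 FPKM in PBS 2-cell embryos and at 186, 168, 189 and 165 in PBS morulae. Its values were close within each stage, and the log2 change was 3.42 (SE 0.12, limma adjusted p = 7.8e-10). Mrpl39 rose from 0.509 ± 0.0854 to 26.1 ± 7.32 FPKM, the largest change of this class (log2 change 4.13, SE 0.18). Mrpl45, whose promoter letters are printed above, had 2.87, 2.37, 2.35 and 2.67 FPKM in 2-cell embryos and 17.0, 16.9, 14.3 and 19.2 in morulae, a log2 change of 2.32 (SE 0.13). Mrpl44, high in oocytes, dipped to 17.6, 16.9, 20.5 and 20.8 FPKM at the 2-cell stage and reached 62.3, 53.2, 56.2 and 56.4 in morulae (log2 change 1.54, SE 0.12). Mrpl58 rested on 15 reads over the 4 PBS 2-cell libraries and 646 over the 4 PBS morulae, and its log2 change was 1.66 (SE 0.21). Mrpl40, with 74.6, 60.4, 59.9 and 59.2 FPKM in 2-cell embryos and 128, 100, 95.2 and 51.5 in morulae, did not pass with PBS (log2 change 0.49, SE 0.24, limma adjusted p = 0.0789). It passed when the fourth PBS morula library was left out (log2 change 0.75, limma adjusted p = 0.000688).

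Among small subunit proteins with a bacterial counterpart, 12 of 15 tested rose and 1 fell, with a median log2 change of 2.31. Mrps28, the counterpart of bacterial S1, went from 5.45, 4.65, 2.60 and 2.80 FPKM to 109, 95.4, 94.2 and 54.8, after 11.5, 14.3, 12.9 and 12.4 in PBS oocytes. The 3 stages did not overlap, and the log2 change between embryos was 4.20 (SE 0.26, limma adjusted p = 5.02e-08). Mrps12 had 8.14, 7.37, 6.52 and 5.07 FPKM in 2-cell embryos and 50.3, 41.6, 51.7 and 28.4 in morulae, a log2 change of 2.48 (SE 0.21). Mrps5 (0.902 ± 0.127 to 11.3 ± 0.594 FPKM) and Mrps9 (3.78 ± 0.483 to 22.7 ± 2.498 FPKM), both conserved proteins of the small subunit, rose with little spread in either stage. Mrps16, a conserved protein in which mutations cause an inherited translation defect, stood at 26.2, 24.3, 17.97 and 16.3 FPKM against 43.2, 25.8, 25.8 and 18.9. These groups overlapped, and the change did not pass (log2 change 0.37, SE 0.24, limma adjusted p = 0.175). Without the fourth PBS morula library it did (log2 change 0.54, limma adjusted p = 0.0477).

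Of 8 small subunit proteins specific to mitochondria that were tested, 5 rose and 2 fell (Mrps23 and Mrps25) with PBS, with a median log2 change of 1.21. With VCD 5 of 7 rose and 0 fell in limma, with a median of 1.18, and no difference between the classes was tested. Mrps31 (ENSMUSG00000031533, GRCm38 chr8:22411361-22429665, plus strand) had the largest rise of the 73 members tested. It stood at 5.11, 6.72, 6.94 and 5.88 FPKM in PBS oocytes, 0.232, 0.195, 0.2997 and 0.432 in PBS 2-cell embryos and 33.1, 34.3, 36.9 and 29.4 in PBS morulae. No values of the 3 stages overlapped, and the log2 change from 2-cell embryo to morula was 4.74 (SE 0.13, limma adjusted p = 2.2e-10). Mrps31 passed the filter through the morula libraries alone, so the direction and the lack of overlap between embryo stages were fixed. Mrps22, with 0.319, 0.457, 0.371 and 0.461 FPKM in 2-cell embryos and 2.15, 1.63, 2.62 and 2.43 in morulae, rose by less on this scale (log2 change 1.18, SE 0.12), which understates changes of low genes.

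The name S18 covers 3 paralogs that occupy different places in the particle, Mrps18a sitting in the large subunit, and all 3 rose. Mrps18a went from 3.62, 2.96, 2.22 and 2.86 FPKM to 90.7, 82.9, 95.4 and 57.8 (log2 change 4.39, SE 0.18, limma adjusted p = 2.92e-09). Mrps18c went from 0.0592, 0.747, 0.286 and 0.220 to 17.7, 11.2, 12.8 and 8.35 FPKM (log2 change 3.33, SE 0.23), and 22.9% of its words occur in other genes. Mrps18b had the lowest means of the family, 0.235 ± 0.0731 and 1.98 ± 0.564 FPKM, and 30.2% of its words occur in other genes, chiefly the antisense transcript Gm16279. None of the 3 overlapped between the stages, which the filter had fixed for Mrps18b and Mrps18c.

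**Figure D3:**
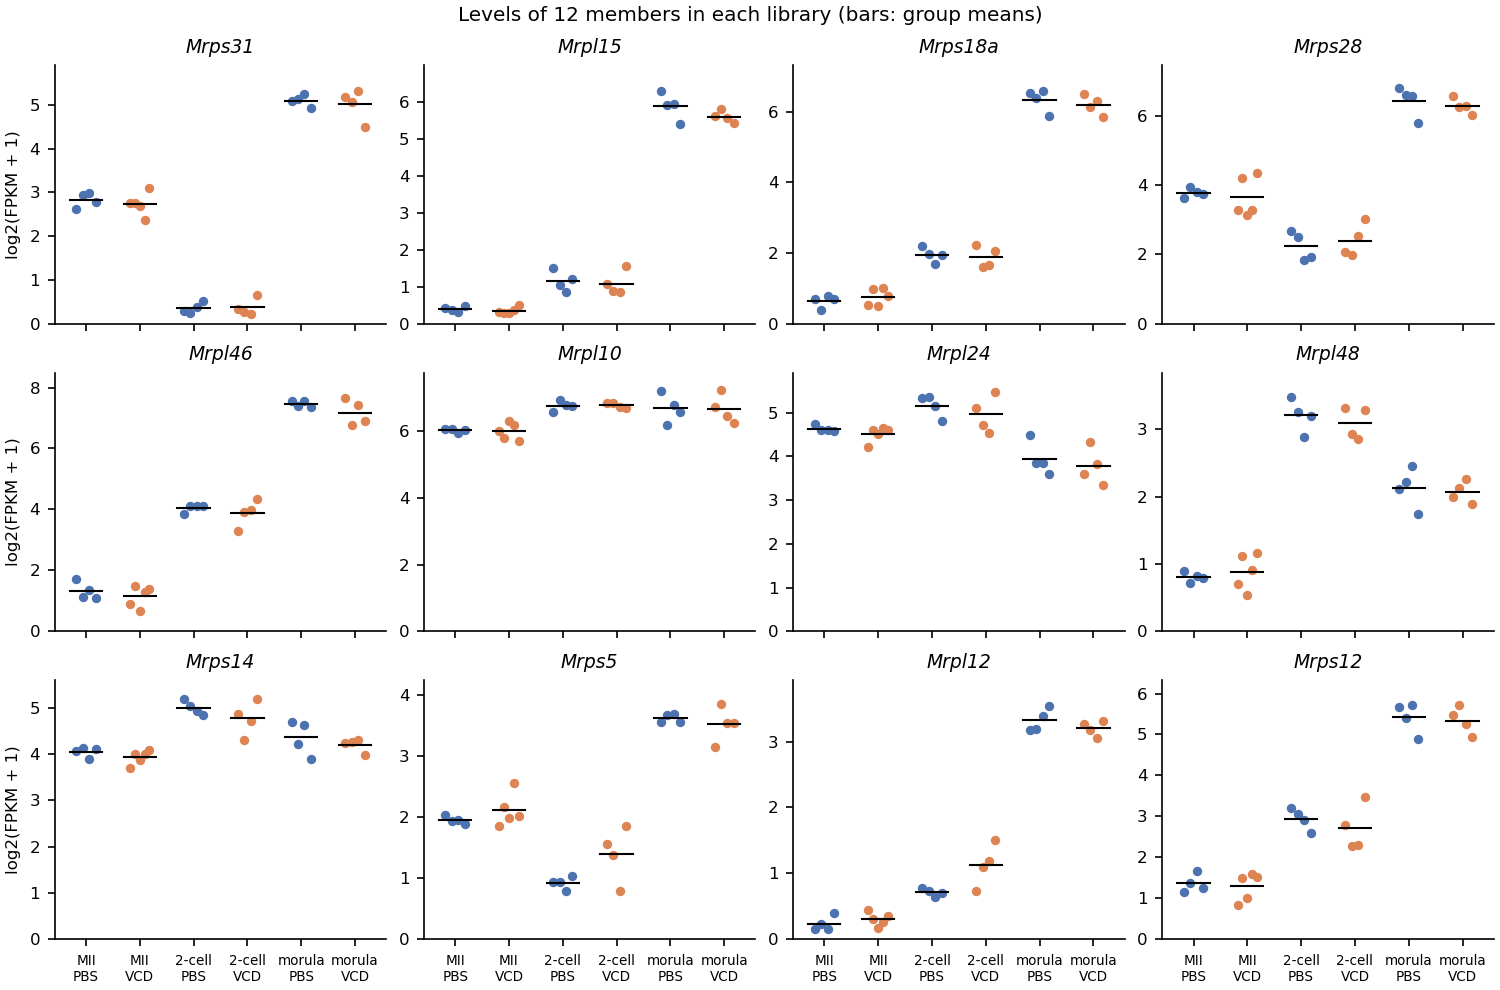
Levels of 12 members as log2(FPKM + 1) (vertical axes, scaled for each gene) in each library (points, blue for PBS and orange for VCD) of the 6 groups, with bars at the group means. Mrps31 and Mrps28 dip in 2-cell embryos and peak in morulae, Mrpl15, Mrps18a and Mrpl46 climb, Mrpl10 differs little, and Mrpl24, Mrpl48 and Mrps14 peak in 2-cell embryos.

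The 6 members that fell between 2-cell embryo and morula with PBS fell less than most others rose. Mrpl24 (ENSMUSG00000019710, GRCm38 chr3:87919506-87923672, plus strand), whose bacterial counterpart starts the assembly of the large subunit, had 39.5, 40.0, 34.4 and 27.2 FPKM in 2-cell embryos and 21.5, 13.4, 13.4 and 11.2 in morulae. These groups did not overlap, and the log2 change was -1.22 (SE 0.20, limma adjusted p = 0.000193), with 23.3% of its words found in other genes, chiefly Rrnad1 on the opposite strand. Mrpl48 (ENSMUSG00000030706, GRCm38 chr7:100545751-100608301, minus strand), specific to mitochondria, had 0.855, 0.641, 0.777 and 0.741 FPKM in PBS oocytes, 10.1, 8.51, 6.42 and 8.21 at the 2-cell stage and 3.31, 3.65, 4.46 and 2.33 at the morula stage. The 2-cell values stood above both other stages, and the log2 change to the morula was -1.08 (SE 0.19, limma adjusted p = 0.00023). Of the Mrpl48 words, 13.7% occur in other genes, chiefly Rab6a on the opposite strand, which fell as well. How much of the Mrpl48 value comes from Rab6a reads was not tested. Mrps14, a conserved protein of the small subunit's head, had 35.8, 31.8, 29.7 and 27.96 FPKM and then 24.8, 17.7, 23.9 and 13.9 (log2 change -0.65, SE 0.19). Mrps23 had 5.02, 3.98, 3.63 and 5.02 FPKM and then 3.08, 1.23, 2.62 and 1.83 (log2 change -0.79, SE 0.20), and Mrpl3, near the peptidyl transferase centre, 36.8 ± 3.63 and then 26.5 ± 3.496 FPKM (log2 change -0.46, SE 0.14). The call on Mrpl3 was lost when libraries were scaled to the same median (log2 change -0.25, limma adjusted p = 0.112). Mrps25 had 1.53 ± 0.239 and 0.770 ± 0.160 FPKM (log2 change -0.51, SE 0.12). Mrps25 passed the filter through the 2-cell libraries alone, which fixed its direction and the lack of overlap. Its value is uncertain, since 68.2% of its words occur in other genes, chiefly Nr2c2 on the opposite strand, and with quantile normalization its change was 0.036.

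The embryos cultured with VCD, which share no library with the PBS embryos, gave a second set of stage changes. Of 72 members tested, 61 were higher in morulae (background 41.0% of 12355 genes) and 4 were lower (background 43.9%), with a median log2 change of 1.93. Again 16 of the 61 reached 1 FPKM in all 4 morula libraries but not in all 4 2-cell libraries. Of the 56 members at 1 FPKM or more in all libraries of both stages, 45 rose and 4 fell, with a median of 1.79. Over all 5955 genes so expressed, 47.9% were higher and 30.2% lower, with a median of 0.43. The stages did not overlap in 63 members, and in 79.2% of all genes. Both agents called 59 members higher and 4 lower, and no member was called in opposite directions. Mrpl32 and Mrpl35 were called higher with PBS alone, Mrpl40 and Mrps16 with VCD alone, and Mrps23 lower with PBS alone, but passing with 1 agent does not show a difference between agents. The Mrps16 call with VCD (log2 change 0.46, limma adjusted p = 0.0351) was lost in 10 other settings, among them the replicate block (limma adjusted p = 0.0885), recovered reads (0.0531) and 6 fits without 1 library (up to 0.101). Across the 72 members the changes correlated with r = 0.989, and the largest difference was that of Mrps5 (2.70 with PBS, 2.13 with VCD). Mrps31 went from 0.262, 0.205, 0.177 and 0.583 FPKM to 35.4, 32.5, 38.9 and 21.5 with VCD (log2 change 4.64, SE 0.21, limma adjusted p = 7.34e-09). Mrpl24 went from 33.7, 25.5, 22.2 and 43.4 to 11.1, 19.0, 13.2 and 9.19 FPKM (log2 change -1.19, SE 0.26, limma adjusted p = 0.00131). In both genes the stages did not overlap, which the filter had fixed for Mrps31.

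**Figure D4:**
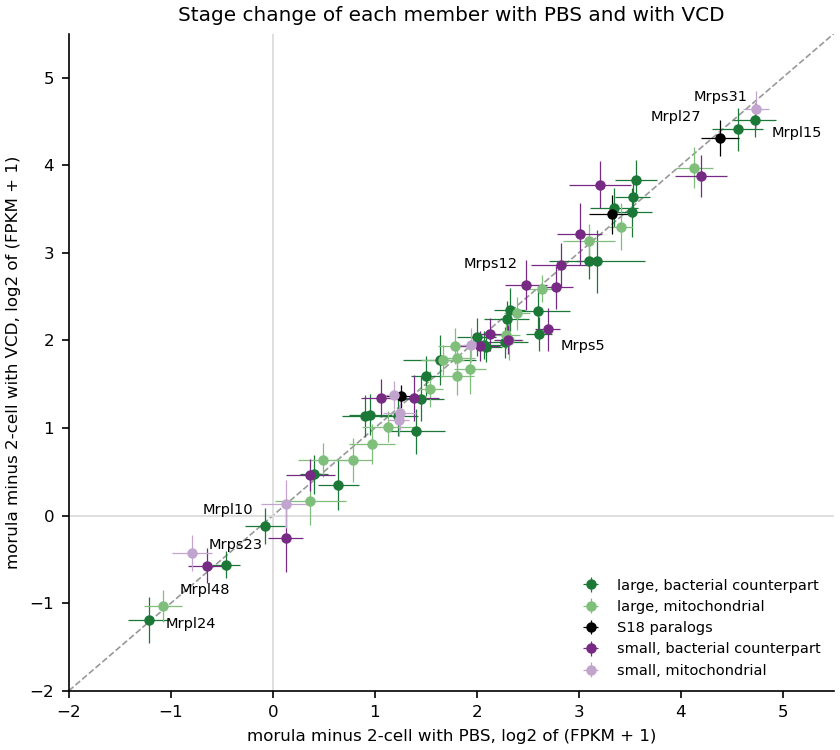
Change of each of 72 members from 2-cell embryo to morula with PBS (horizontal axis) and with VCD (vertical axis), both as differences of log2(FPKM + 1), with standard errors as bars and the line of equality dashed. Colours give the structural class. Members lie along the line, from Mrpl24 at -1.22 and -1.19 to Mrps31 at 4.74 and 4.64.

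VCD itself was then compared with PBS within each stage, the question the design's PBS and VCD groups pose. No member passed in any stage with limma. In MII oocytes 0 of 46 members tested were called (0.0115% of all genes tested were), in 2-cell embryos 0 of 59 (0% of all genes) and in morulae 0 of 72 (0.0100% of all genes). At an unadjusted p under 0.05 the counts were 1, 0 and 0 members, against 2.81%, 3.44% and 3.12% of all genes, and limma-voom on recovered reads also called 0 in each. The difference between the VCD effects of the embryo stages, tested as an interaction, was called in 0 of 73 members (0% of all genes), with 1 member at an unadjusted p under 0.05 (3.55% of all genes). A p that misses the threshold does not show equal levels, so the 95% intervals are given as well. They lay within 1 either way on the log2(FPKM + 1) scale for all 46 members in oocytes and all 59 in 2-cell embryos. In morulae 68 of 72 did, the exceptions being Mrpl14, Mrpl36, Mrps2 and Mrps6. For low members such an interval can still hold a change of more than 2-fold in FPKM.

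In MII oocytes 27 of 46 members had a positive difference, with a median log2 difference of 0.04 (0.01 over all genes). The sign turned on single libraries: without the fifth VCD library, which the replicate block also drops, 18 were positive and the median was -0.02, and without the second VCD library 22 were positive and the median was -0.01. Mrpl9, a conserved large subunit protein, had the smallest p. It stood at 12.6, 12.6, 13.0 and 10.3 FPKM with PBS and 20.3, 14.2, 12.5, 15.9 and 16.5 with VCD. The groups overlapped, and the log2 difference was 0.35 (SE 0.13, limma unadjusted p = 0.0202, adjusted p = 0.999). Next by p came Mrpl40 (15.3 ± 1.46 and 17.6 ± 2.98 FPKM) and Mrpl2 (14.4 ± 1.70 and 16.9 ± 3.33 FPKM).

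In 2-cell embryos 20 of 59 members had a positive difference, with a median of -0.06 (0.01 over all genes). Without the third VCD library 30 were positive and the median was 0.0080, and without the fourth 11 were positive and the median was -0.14. Mrps5 had 0.920, 0.921, 0.731 and 1.04 FPKM with PBS and 1.96, 1.59, 0.734 and 2.63 with VCD. One VCD library lay among the PBS values, and the log2 difference was 0.47 (SE 0.21, limma unadjusted p = 0.0510, adjusted p = 0.999). Mrpl11 (2.21 ± 0.324 and 1.68 ± 0.282 FPKM) and Mrpl45 (2.57 ± 0.250 and 3.36 ± 0.881 FPKM) followed, both with overlap. Of the 61 members at a mean of 1 FPKM or more with VCD, 44 were highest in the fourth VCD library.

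Morulae had 16 of 72 members with a positive difference, and the median was -0.09 (-0.01 over all genes). Without the fourth VCD library, the lowest of its group for 46 of 72 members, the median was -0.0037 and 34 members were positive. Without the first PBS library, the highest for 47 of 73 members, 32 were positive and the median was -0.03, and without the fourth PBS library 8 were positive and the median was -0.22. Mrps9 had 22.2, 19.7, 22.9 and 25.8 FPKM with PBS and 22.5, 15.4, 18.9 and 18.7 with VCD, Mrpl46 186, 168, 189 and 165 and then 200, 107, 169 and 118, and Mrpl15 77.2, 59.1, 59.99 and 40.9 and then 48.0, 54.3, 46.4 and 42.0. All 3 overlapped, and none came near the threshold (limma adjusted p = 0.99997 in each). In the interaction the smallest p was that of Mrpl12 (log2 difference -0.54, SE 0.22, limma unadjusted p = 0.0241, adjusted p = 0.999), which had 0.649, 1.13, 1.28 and 1.84 FPKM in VCD 2-cell embryos and 8.66, 7.996, 7.34 and 8.92 in VCD morulae.

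**Figure D5:**
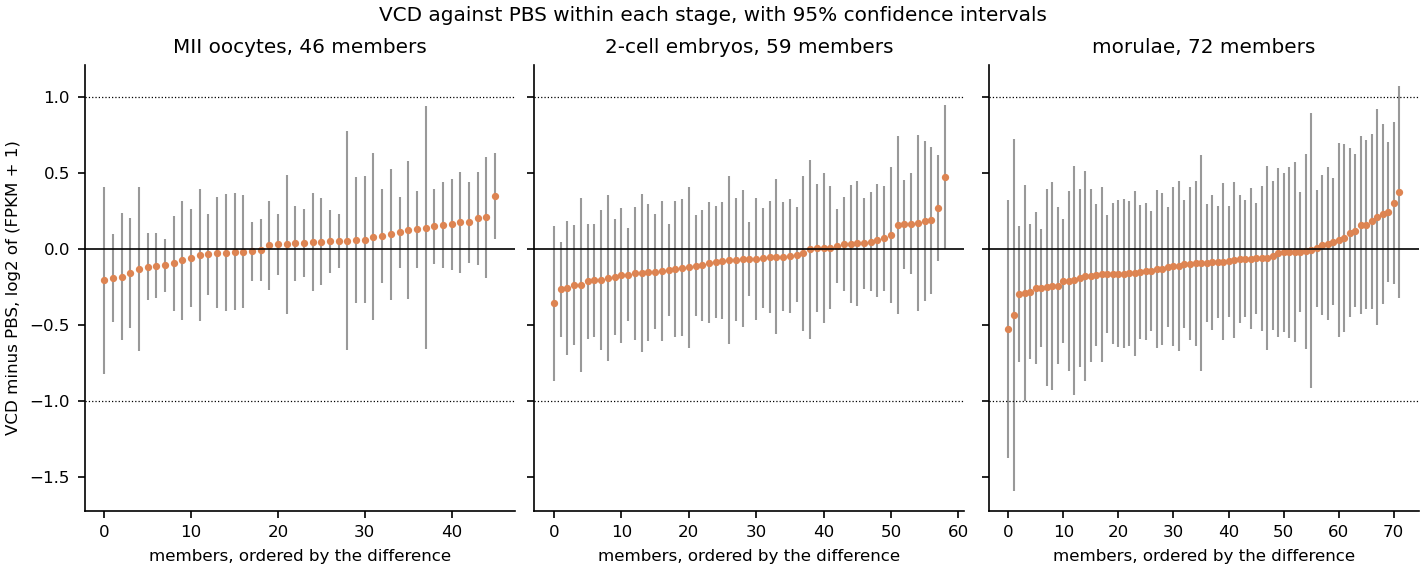
Difference between VCD and PBS for each member tested in MII oocytes (46), 2-cell embryos (59) and morulae (72), on the log2(FPKM + 1) scale, ordered by size. Bars are 95% confidence intervals, and dotted lines mark a 2-fold change of FPKM + 1. Intervals include 0 except for Mrpl9 in oocytes.

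Genes that work with the mitochondrial ribosome were read in the same stage comparisons, as counts over lists beside all genes tested (42.7% higher and 45.0% lower with PBS). The lists were not split by the filter, so their counts hold genes that passed it through the libraries of a single stage. Of the genes given with levels, Mrm3, Tufm and Hars2 had PBS 2-cell means under 1 FPKM. Nsun4 and Mtrf1 had PBS morula means under 1 FPKM. The filter favoured or fixed the direction of these genes, and their p-values are no separate support. Subunits of the particle under other names gave 4 of 5 higher and 0 lower with PBS (median log2 change 0.61), but 2 of 5 higher with VCD (median 0.21), among them Chchd1 (6.95 ± 1.72 to 100.2 ± 34.0 FPKM, n = 4 each) and Aurkaip1 (6.72 ± 0.843 to 29.7 ± 6.54). The interaction called 0 of these 5 (0% of all genes), with 0 positive and a median of -0.25. Assembly factors and rRNA-modifying enzymes were mixed, with 14 of 23 higher and 6 lower with PBS and 15 and 5 with VCD. The rRNA methyltransferase Mrm3 rose from 0.542 ± 0.237 to 21.5 ± 0.767 FPKM (log2 change 3.88, SE 0.14), and Nsun4, which methylates the small rRNA and joins the subunits with Mterf4, fell from 43.7 ± 3.22 to 0.725 ± 0.192 (log2 change -4.70, SE 0.13, limma adjusted p = 2.62e-10). Among translation factors 7 of 13 rose and 3 fell with PBS, and 6 rose and 3 fell with VCD, so the risers were close to the share over all genes. Tufm, the factor that delivers tRNAs, rose from 0.1801 ± 0.0676 to 28.2 ± 3.78 FPKM (log2 change 4.62, SE 0.14, limma adjusted p = 3.64e-10), and the release factor homolog Mtrf1 fell from 4.87 ± 0.328 to 0.2999 ± 0.114.

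The mitochondrial tRNA synthetases gave 12 of 15 higher and 2 lower with PBS and 10 of 13 and 2 with VCD, the histidine enzyme Hars2 rising from 0.124 ± 0.115 to 12.3 ± 2.09 FPKM and the phenylalanine enzyme Fars2 falling from 42.9 ± 4.54 to 5.91 ± 0.211. Only 5 synthetases passed the filter among 2-cell libraries, against 14 among morula libraries. The others entered the stage test through morula values, which favours a rise. For mitochondrial transcription and RNA processing 7 of 11 rose and 1 fell with each agent. Trmt10c and Hsd17b10, both subunits of mitochondrial RNase P, rose by 1.94 (SE 0.16) and 2.62 (SE 0.17) on the log2 scale. Both mitochondrial rRNAs, the RNA partners of the members, rose: mt-Rnr1 by 2.00 (SE 0.13) and mt-Rnr2 by 2.38 (SE 0.09) on the log2 scale. Of 12 mitochondrial mRNAs that the particle translates, 5 rose and 5 fell with PBS, near the shares over all genes, with a median of -0.13. With VCD 6 rose and 1 fell, with a median of 0.57. The interaction, which tests the difference between the agents gene by gene, called 0 of the 12 (0% of all genes). All 12 were positive, with a median of 0.43 (-0.01 over all genes), and the list as a whole was not tested. With PBS, mt-Nd6 changed by 1.17 (SE 0.17) and mt-Cytb by -0.87 (SE 0.12) on the log2 scale. Nuclear genes of the respiratory chain gave 71 of 80 higher and 4 lower with PBS (71 of 79 and 3 with VCD), with a median of 2.33. Cytosolic ribosomal proteins gave 77 of 78 higher and 1 lower with PBS (76 of 77 and 0 with VCD), with a median of 3.74, beside 1.94 for the members.

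The members share a position next to another gene more often than protein-coding genes at large. A start within 1000 bases of a protein-coding start on the opposite strand was found for 33 of 77 members (42.9%) and for 10.8% of 22028 protein-coding genes of the annotation (GRCm38, GENCODE M21). In 22 such pairs both genes were tested in the PBS stage comparison. Both genes rose in 13 pairs, the member rose and the partner fell in 5, the member rose and the partner was not called in 2, both fell in 1, and in 1 the partner alone fell. Over all genes tested with PBS, 42.7% were higher and 45.0% lower, and most members rose. The pair counts were not split by the filter. They hold members and partners that passed it through the morula libraries alone, among the partners Sars2, Ndufs6, Wdfy1 and Apba3. Whether the genes of a pair change together more than other genes was not tested. One pair lies within the family: Mrps11 and Mrpl46 start 412 bases apart, and rose by 2.77 (SE 0.16) and 3.42 (SE 0.12) on the log2 scale. Mrps12 starts 172 bases from Sars2, the mitochondrial serine tRNA synthetase (log2 change 2.14, SE 0.12). Mrpl36 starts 29 bases from Ndufs6, a subunit of complex I (log2 change 3.10, SE 0.16). Sars2 and Ndufs6 had 0.274 ± 0.159 and 0.261 ± 0.197 FPKM in PBS 2-cell embryos. Both passed the filter through the morula libraries alone, so their upward direction was fixed. Mrps18c starts 29 bases from the DNA helicase gene Helq, which fell from 96.6 ± 2.09 to 6.998 ± 0.563 FPKM while the member rose, and Mrpl48 starts 891 bases from Rab6a, which fell by 1.27 (SE 0.14) as the member fell by 1.08. Reads of overlapping exons at such starts could be counted for either gene.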

How the data were processed

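RNA of 25 Smart-seq2 libraries (4 or 5 per group) was analysed from the FPKM tables the authors deposited, one for oocytes (25158 genes) and one for embryos (34228 genes). Bowtie2 2.2.3 and TopHat2 2.0.12 are named per the submitters' processing notes, which also list the chicken build galGal4, although the gene identifiers are those of mouse Ensembl. The counting tool is not given in the sources used here. Symbols were found in GENCODE M21 for 25073 and 34065 genes. No pair of libraries in a table was identical (156 pairs). The FPKM values stepped in whole reads for between 90.6% and 93.4% of values per library (tolerance 0.01), from which reads were recovered for limma-voom.

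Tests were limma-trend (limma 3.58.1, R 4.3.3) on log2(FPKM + 1), on genes that reached 1 FPKM in 4 or more libraries of a fit, with Benjamini-Hochberg adjustment over all genes and a threshold of 0.05. This pseudocount understates changes of low genes. Fits held the groups of each comparison alone, or the 4 embryo groups for the interaction. Named members were the 5 largest significant changes each way between embryo stages without overlap, the 3 smallest p of each VCD comparison, the 3 highest and 3 lowest means per stage with PBS, a panel of known role, and for other lists the 2 smallest p. Members outside these rules, such as Mrpl39, Mrpl36 and Mrps11, were added after their values were seen. Members and lists were chosen with earlier results of these data known. Alternatives were other pseudocounts, filters and scalings, recovered reads, a replicate block, and each library left out. The method was tested on simulated data. Mrpl53 was not analysed here.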

Additional observations from a re-analysis of the deposited data

Results flagged for a closer look

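In groups of 4 or 5 libraries, 9 of 156 groups of values held a library far from the others, and chance gives about 1 in 20. No explanation was weighed.

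In MII oocytes with PBS, the members' share of all FPKM was 0.135% in replicate 4, against 0.142% to 0.143% in the others. In the same group Mrpl24 was 25.9 FPKM in replicate 1 (others 23.1 to 23.3), Mrpl45 was 6.58 in replicate 2 (7.08 to 7.16) and Mrpl9 was 10.3 in replicate 4 (12.6 to 13.0). In MII oocytes with VCD, Mrps36 was 4.98 FPKM in replicate 5, against 0.431 to 1.25 in the other 4.

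In 2-cell embryos with PBS, replicate 1 stood apart for Mrpl40 (74.6 FPKM, others 59.2 to 60.4) and Mrpl46 (13.6, others 16.2 to 16.5). With VCD, Mrpl45 was 4.67 FPKM in replicate 4 (2.80 to 3.03). In morulae with PBS, Mrpl9 was 44.3 FPKM in replicate 4 (32.5 to 34.4), the library that was lowest for most members.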

How the results depend on the processing

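Over 18 settings each, the members called higher in morulae numbered between 49 and 64 with PBS and between 50 and 63 with VCD, and those called lower between 4 and 6 and between 3 and 5. Leaving out 1 library gave 61 to 63 higher with PBS and 59 to 62 with VCD. VCD against PBS and the interaction called 0 members under each setting run. Without members sharing over 20% of their words, 54 of 64 rose and 4 fell with PBS. Same-numbered deviations correlated between -0.325 and 0.378, and the same-numbered library was the best match for some numbers and not for others. With so few libraries per group, this cannot settle whether replicate numbers pair the samples. With the replicate block, 62 members were higher and 6 lower with PBS, 59 and 4 with VCD, and 0 were called in the VCD comparisons.

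For single members, Mrps25 turned to 0.036 (limma adjusted p = 0.804) under quantile normalization with PBS, which shifts the median of all genes from -0.08 to 0.11. Scaling to the same median shifts it to 0.08, a filter of 5 FPKM to 0.14. Mrpl10 was called lower under quantile normalization (-0.45 with PBS, limma adjusted p = 0.0375). Mrpl40 with PBS passed with the block (limma adjusted p = 0.0325) and with the same median (0.0184). With VCD, Mrps16 lost its call in 10 settings and Mrps14 in 4, and Mrps23 gained one in 2. Low levels limit Mrpl52, Mrpl58 and Mrps34, which rest on few reads.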
